A study of Drosophila melanogaster with 8 samples.

Results

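The 6 conventional actin genes of Drosophila melanogaster were followed through RNA-seq of adult male thoraces, and were found by their symbols, Act5C, Act42A, Act57B, Act79B, Act87E and Act88F, among the 17562 genes of each table. The 4 REPTOR[ACT] libraries came from progeny of tub-Gal80ts; dMef2-GAL4 flies and flies with UAS-REPTOR[ACT], and the 4 control libraries from the same driver line crossed to w[1118]. REPTOR is a bZIP transcription factor that is held inactive when TORC1 is active, and REPTOR[ACT] is its constitutively active allele. Both groups therefore carried the driver, which works in all muscle types, and the temperature-sensitive Gal80 that keeps it silent at 18 °C, and the control flies lacked the transgene. Flies of both groups were reared at 18 °C. By the sample records, males then spent 3 to 4 days at 18 °C and 4 days at 29 °C, and 5 to 6 thoraces were pooled for each library. The study's methods instead give 4 to 5 days at 18 °C before the move to 29 °C.

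Actin is the protein of the thin filament of the sarcomere and of the cytoskeleton of every cell. The fly makes it from separate genes that code for nearly the same protein and differ mainly in where they are used. Act88F is known as the actin of the indirect flight muscles, Act79B as an actin of tubular muscles such as those of the legs, and Act57B and Act87E as muscle actins of larva and adult. Act5C and Act42A are the cytoplasmic actins that most cells use.

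In the annotation of genome build BDGP6.54, Act88F (FBgn0000047) lay on chromosome 3R at 15439969 to 15442177, with 1 transcript of 3 exons and 1595 exon bases. Act87E (FBgn0000046), on the same arm at 13425983 to 13428375, had 3 transcripts and 1989 exon bases. Act79B (FBgn0000045) lay on 3L at 21985210 to 21987190, with 2 transcripts and 1619 exon bases. The genes are thus spread over the X chromosome and 3 autosomal arms. Act57B (FBgn0000044) was on 2R at 20944021 to 20946431 with 1 transcript of 1724 bases, and Act42A (FBgn0000043) on 2R at 6013910 to 6015689, on the minus strand, with 1 transcript of 1626 bases. Act5C (FBgn0000042) was on X at 5900861 to 5905399 and had 5 transcripts over 2978 exon bases. All 6 genes coded for 376 codons. They differed in what surrounds the coding part, since the 3′ UTR ran to 345 to 1571 bases in the transcripts of Act5C, 355 to 641 bases in those of Act87E, 497 bases in Act57B, 370 in Act88F, 360 in Act42A and 347 in Act79B. Coding sequence made up 37.9% of the exon bases of Act5C and 70.7% of those of Act88F. Because the coding parts are so alike, a short read can match more than 1 paralogue. No source used here says how such reads were counted, so the levels and shares of single paralogues below carry that uncertainty. The other gene models that overlap these exons had few or no counted reads. A small nucleolar RNA gene that overlaps Act57B by 96 exon bases on the same strand had 0 reads in every library. As the counting rule is not known, this 0 does not show whether reads fell on the shared bases. The long non-coding gene lncRNA:CR45591, which overlaps Act87E by 60 exon bases on the opposite strand, had 1 to 8 reads.

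The libraries held 29.07 to 42.74 M reads (M, 1e6) in REPTOR[ACT] and 26.79 to 50.03 M in control, with 12551 to 13045 and 12362 to 12943 genes detected. Genes of the mitochondrial genome took 31.6 to 34.1% of the reads in REPTOR[ACT] and 30.4 to 42.2% in control. REPTOR itself had 337, 289, 269.9 and 306 CPM (read counts per 1e6 reads after TMM scaling) in REPTOR[ACT] libraries 1 to 4, against 101, 132, 92.5 and 97.2 CPM in control libraries 1 to 4 (log2 fold change 1.51, SE 0.11, adjusted p 2.1e-06). Every library thus matched its label. The muscle identity of the samples was clear, since the 8 muscle markers summed to 28660 to 30581 CPM in REPTOR[ACT] and 25429 to 27416 CPM in control. Of the markers, Mhc (myosin heavy chain, log2 fold change 0.78), Mlc2 (1.12), Mlc1 (0.35) and Prm (0.31) rose, and Mf (myofilin, −1.75) and Unc-89 (−0.33) fell. Fat body markers overlapped, at 4355 to 6352 CPM in REPTOR[ACT] and 3925 to 5435 CPM in control, with 0 of 4 tested members called, Fbp1 at 0.17 CPM or less in every library and plin1 not used here. Of 5 neuron, 4 glia, 5 hemocyte, 4 trachea and 1 gut markers tested, Gs2 (0.50, glia) and NimC1 (0.87, hemocyte) rose and nSyb (−0.19, neuron), nrv2 (−0.49, glia) and Hml (−0.28, hemocyte) fell, and their part in the actin values was not tested.

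Actin reads made up a much larger part of the REPTOR[ACT] libraries, and nearly all of the gain came from 2 of the 6 genes. Reads of the 6 genes made up 0.916, 0.915, 0.932 and 0.915% of all reads in REPTOR[ACT] libraries 1 to 4, against 0.421, 0.370, 0.371 and 0.369% in control libraries 1 to 4. The groups did not overlap and the means were 0.919% ± 0.00831 and 0.383% ± 0.0252 (SD, n = 4 each), a 2.40-fold difference. On the scaled values the 6 genes summed to 9128 ± 187 CPM in REPTOR[ACT] and 3853 ± 126 CPM in control (SD, n = 4 each). Act88F accounted for 2977 of the 5274.5 CPM gained (56.4%) and Act79B for 2337 CPM (44.3%). The 4 remaining paralogues together stood at 1989 ± 169 CPM in REPTOR[ACT] and 2030 ± 58.5 CPM in control, and their ranges of 1777 to 2170 and 1991 to 2117 CPM overlapped. In these bulk samples, a change in the share of cells of a muscle type and a change in the RNA per cell cannot be told apart.

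**Figure D1:**
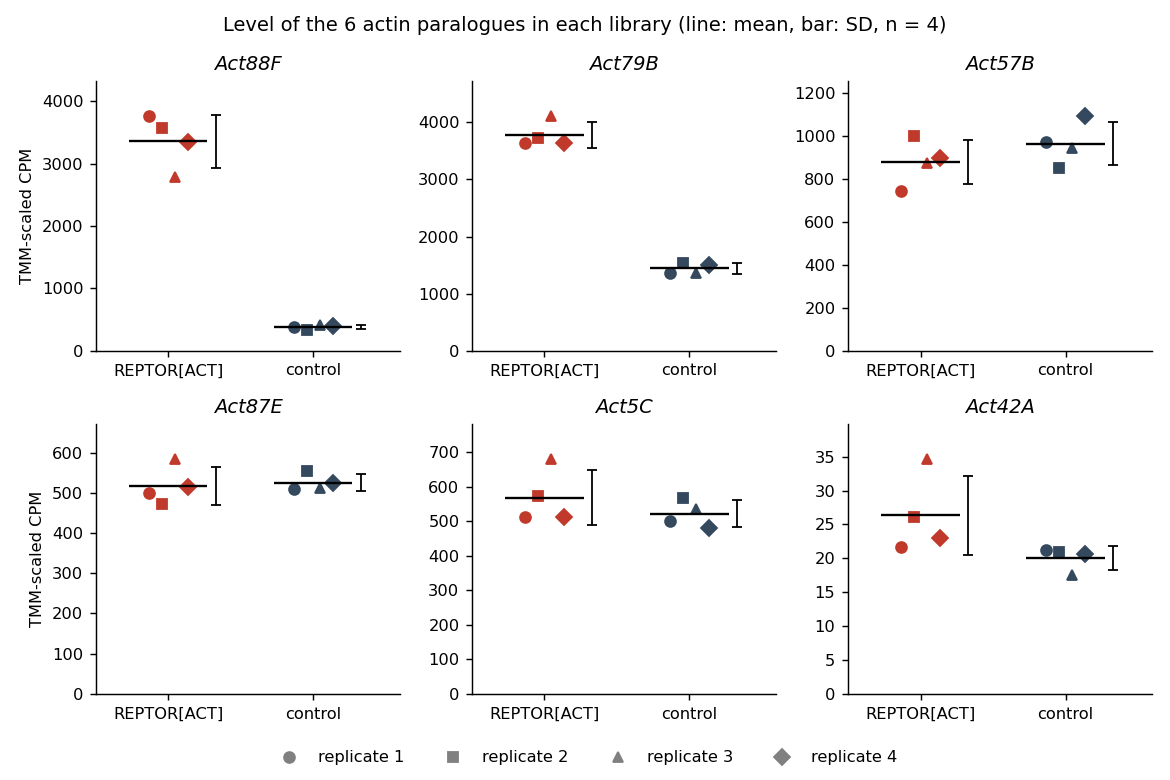
TMM-scaled CPM of each paralogue in the REPTOR[ACT] libraries (red) and the control libraries (dark), with 1 marker shape per replicate number, the mean as a line and the SD as a bar (n = 4 each). Every vertical axis starts at 0. Act88F and Act79B are higher in all REPTOR[ACT] libraries than in any control library, Act57B, Act87E and Act5C overlap between the groups, and the lowest REPTOR[ACT] value of Act42A (21.6 CPM) lies just above the highest control value (21.2 CPM).

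Among the 9903 genes tested with the edgeR quasi-likelihood test, 44.2% were called at a Benjamini-Hochberg adjusted p under 0.05, 24.8% higher and 19.4% lower in REPTOR[ACT]. Of the 6 paralogues, all of which passed the filter on low counts, 3 were called higher and 0 lower. In either direction, the 50% called is close to the 44.2% of all genes. Called higher were 50%, against 24.8% of all genes, in a list of only 6. The study's second limit, an absolute log2 fold change over 1, was passed by 6.88% of all genes (4.83% higher, 2.05% lower), and by Act88F and Act79B among the paralogues. The median log2 fold change was 0.26 over the 6 paralogues and −0.0090 over all genes tested. In 23.6% of all genes tested, every REPTOR[ACT] library lay above every control library, and in 18.3% below.

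Act88F, the flight muscle actin, had 3758, 3564, 2776 and 3340 CPM in REPTOR[ACT] libraries 1 to 4, against 374, 337, 418 and 400.0 CPM in control libraries 1 to 4. Every REPTOR[ACT] library was far above every control library, and library 3 was the lowest of the REPTOR[ACT] group. The group means of 3360 ± 425 and 382 ± 35.3 CPM (SD, n = 4 each) differed 8.79-fold, and the fitted log2 fold change was 3.14 (SE 0.11, adjusted p 5.6e-09). By mean CPM the gene was the 16th of 9903 in REPTOR[ACT] and the 307th in control.

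Act79B, the tubular muscle actin, had 3646, 3726, 4107 and 3635 CPM in REPTOR[ACT], against 1365, 1533, 1357 and 1510 CPM in control. Again the groups did not overlap, but here library 3 was the highest of the REPTOR[ACT] group. The means were 3779 ± 223 CPM in REPTOR[ACT] and 1441 ± 93.1 CPM in control (SD, n = 4 each), a 2.62-fold difference, with a log2 fold change of 1.39 (SE 0.067, adjusted p 5.3e-08). The gene was the 14th by mean CPM in REPTOR[ACT] and the 51st in control, so the flight muscle and tubular muscle genes stood side by side near the top of the list in REPTOR[ACT].

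Act57B and Act87E, the other muscle actins, were not called. Act57B had 744, 996, 873 and 894 CPM in REPTOR[ACT], against 972, 847, 941 and 1090.0 CPM in control. The groups overlapped, with means of 877 ± 104 and 962 ± 100.2 CPM (SD, n = 4 each) and a log2 fold change of −0.13 (SE 0.097, adjusted p 0.285). For Act87E, the REPTOR[ACT] libraries had 500.04, 472, 583 and 515 CPM, against 508, 555, 512 and 525 CPM in control. Act87E showed the smallest fitted change of the 6 genes, −0.022 (SE 0.071, adjusted p 0.830), with means of 517 ± 47.3 and 525 ± 20.9 CPM (SD, n = 4 each).

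Of the cytoplasmic actins, Act5C had 512, 574, 679.5 and 511 CPM in REPTOR[ACT], against 502, 569, 536 and 481 CPM in control. The groups overlapped, and the log2 fold change of 0.12 (SE 0.095) had an adjusted p of 0.314. Act42A was far the least abundant paralogue, at 21.6, 26.2, 34.6 and 23.0 CPM in REPTOR[ACT], against 21.2, 20.9, 17.5 and 20.6 CPM in control. All 4 REPTOR[ACT] libraries lay above all control libraries, as did those of 23.6% of all genes tested, but the closest values nearly met. The log2 fold change of Act42A was 0.39 (SE 0.14) with an adjusted p of 0.0441. Blocked by replicate number, the adjusted p was 0.150 at a log2 fold change of 0.37, and without REPTOR[ACT] library 3, the highest, it was 0.0685 at 0.23. The call held in 4 of 16 alternative settings, so the higher level of Act42A was not a firm call.

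**Figure D2:**
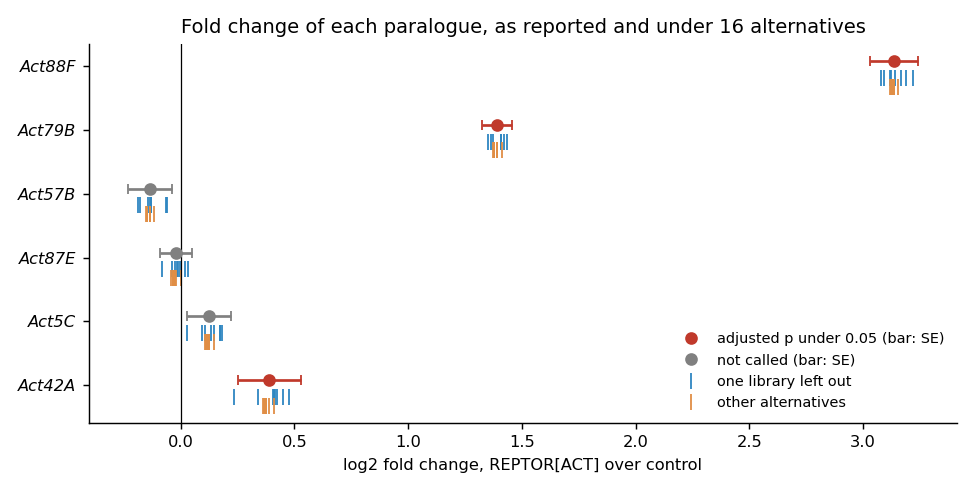
Fitted log2 fold change of each paralogue, REPTOR[ACT] over control, as a point with its standard error, red where the adjusted p was under 0.05 and grey where it was not. Ticks below each point give the 8 fits with 1 library left out (blue) and the 8 other alternatives (orange): Act88F stayed between 3.08 and 3.22 and Act79B between 1.35 and 1.44, while Act87E crossed 0.

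Reads per library ran from 460 (Act42A) to 160175 (Act88F), and coefficients of variation between libraries of a group from 3.98 to 22.1%, of which counting alone would give 0.280 to 3.74%. REPTOR[ACT] library 3 had the lowest or highest REPTOR[ACT] value in 5 of the 6 genes, none of which passed the outlier limit given below. On the log2 scale it was 0.27 below its group mean for Act88F, and above it by 0.42 for Act42A, 0.27 for Act5C, 0.18 for Act87E and 0.12 for Act79B. The same library had the highest summed fat body markers of its group, 6352 CPM, against 5905 CPM in REPTOR[ACT] library 1. Its TpnC4 level (flight muscle troponin C) of 654 CPM was the lowest of all 8 libraries. What these values have to do with the actin levels was not tested. Act88F and Act79B kept their calls without this library.

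The share of each paralogue in the actin reads needs no scaling between libraries. It depends on gene length as well as level, so it is compared here for each gene between the groups and not between genes. In REPTOR[ACT], Act79B and Act88F together took 78.2% on average, against 47.3% in control. Act88F gave 40.9, 38.1, 30.7 and 37.4% of the actin reads in REPTOR[ACT] libraries 1 to 4, against 9.99, 8.73, 11.1 and 9.93% in control. Its share was thus 26.9 percentage points higher, at 36.8% ± 4.35 in REPTOR[ACT] and 9.93% ± 0.952 in control (SD, n = 4 each). The share of Act79B was 39.7, 39.8, 45.4 and 40.8% in REPTOR[ACT], against 36.5, 39.7, 35.9 and 37.5% in control. This difference of 4.03 points was small and the groups nearly touched at 39.71 and 39.69%. Per kilobase of exon the shares of Act79B overlapped, at 43.1% ± 3.05 in REPTOR[ACT] and 41.6% ± 1.95 in control (two-sided exact permutation test, p = 0.486, n = 4 each).

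The shares of the other 4 genes were lower in REPTOR[ACT], although 0 of these genes was called lower in CPM. The share of Act57B was 8.10, 10.6, 9.64 and 10.02% in REPTOR[ACT], against 26.0, 21.9, 24.9 and 27.1% in control, and the means of 9.60% ± 1.08 and 25.0% ± 2.21 differed by −15.4 points. Act87E gave 5.68% ± 0.592 of the actin reads in REPTOR[ACT] and 13.6% ± 0.543 in control, with ranges of 5.04 to 6.44% and 13.0 to 14.4%. Act5C gave 6.24% ± 0.878 in REPTOR[ACT] and 13.6% ± 1.21 in control, with ranges of 5.57 to 7.51% and 11.9 to 14.7%. Act42A stayed under 1% throughout, at 0.236 to 0.382% in REPTOR[ACT] and 0.463 to 0.566% in control. The 2 groups did not overlap in any of the 6 shares, and each gave a two-sided exact permutation p of 0.0286 (n = 4 each), the smallest that 4 libraries against 4 allow. The 6 shares sum to 100% in each library, so these are not 6 independent comparisons, and a lower share does not mean fewer reads.

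**Figure D3:**
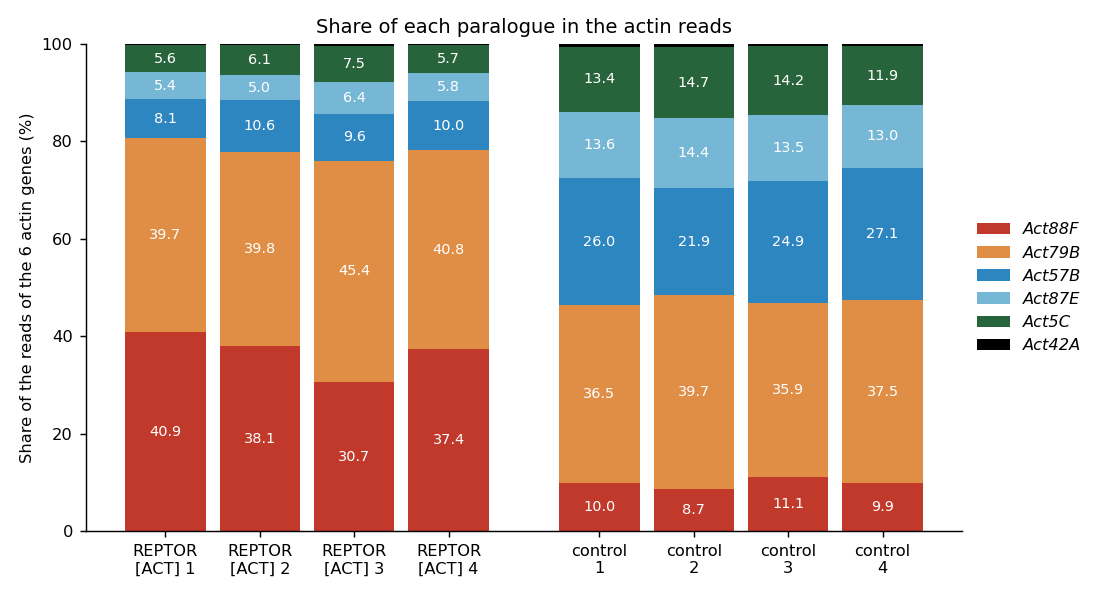
Share of each paralogue in the reads of the 6 actin genes, in percent, as stacked bars for REPTOR[ACT] libraries 1 to 4 and control libraries 1 to 4. The red Act88F part covers 30.7 to 40.9% in REPTOR[ACT] and 8.73 to 11.1% in control, while the orange Act79B part has a similar height in all bars and the Act42A part at the top is barely visible.

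With Act88F left out of the total, the shares of the remaining genes still differed between the groups. Act79B then made up 65.5% ± 1.23 of the reads in REPTOR[ACT] and 41.5% ± 1.45 in control (SD, n = 4 each), a difference of 24.0 points. Act57B, Act87E and Act5C were lower by 12.52, 6.17 and 5.23 points, with no overlap between the groups. These genes were not called in CPM, and a higher share of Act79B lowers all other shares of the same total. Act42A overlapped, at 0.399 to 0.551% in REPTOR[ACT] and 0.520 to 0.629% in control (exact permutation p = 0.0571, n = 4 each). The share of Act79B among the remaining actins ran from 64.3 to 67.2% in REPTOR[ACT] and from 40.3 to 43.5% in control.

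Act88F changed more than Act79B, as their ratio shows. It was 1.03, 0.957, 0.676 and 0.919 reads of Act88F per read of Act79B in REPTOR[ACT], against 0.274, 0.220, 0.308 and 0.265 in control. The log2 ratio was higher by 1.74 in REPTOR[ACT], with no overlap (two-sided exact permutation test, p = 0.0286, n = 4 each). Against Act57B, whose level did not pass the test, the contrast was wider, with 3.89 ± 0.812 reads of Act88F per read of Act57B in REPTOR[ACT] and 0.399 ± 0.0333 in control (SD, n = 4 each). The cytoplasmic pair behaved differently: the ratio of Act5C to Act42A reads was 21.9 ± 1.66 in REPTOR[ACT] and 26.2 ± 3.44 in control, and the groups overlapped.

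Levels of different paralogues can be ordered only per length. Per kilobase of exon, Act79B had 2334 ± 138 and Act88F 2106 ± 266 CPM in REPTOR[ACT] (SD, n = 4), and these neighbours overlapped (2246 to 2537 and 1741 to 2356). Act57B followed at 508 ± 60.1, Act87E at 260.1 ± 23.8, Act5C at 191 ± 26.6 and Act42A at 16.2 ± 3.58 CPM per kilobase. Each of these ranges lay below that of the gene before it. In control, the order was Act79B at 890.1 ± 57.5, Act57B at 558 ± 58.1, Act87E at 264 ± 10.5, Act88F at 239.7 ± 22.1, Act5C at 175 ± 13.0 and Act42A at 12.3 ± 1.06 CPM per kilobase. Act87E and Act88F overlapped there, with 256 to 279 and 211 to 262 CPM per kilobase, and the other neighbours did not. By this measure Act88F was 4th in the control thoraces, below Act79B and Act57B. Per kilobase of the longest transcript, Act87E (274 to 299 CPM) and Act88F (211 to 262 CPM) did not overlap in control. Transcripts of Act5C ran from 1637 to 2863 bases, so its place next to Act87E and Act88F can depend on the length used. TpnC4 and flightin (fln), both known from flight muscle, had 694 to 939 and 302 to 394 CPM in the same control libraries. These values are not divided by length, and the reason for the place of Act88F was not tested.

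**Figure D4:**
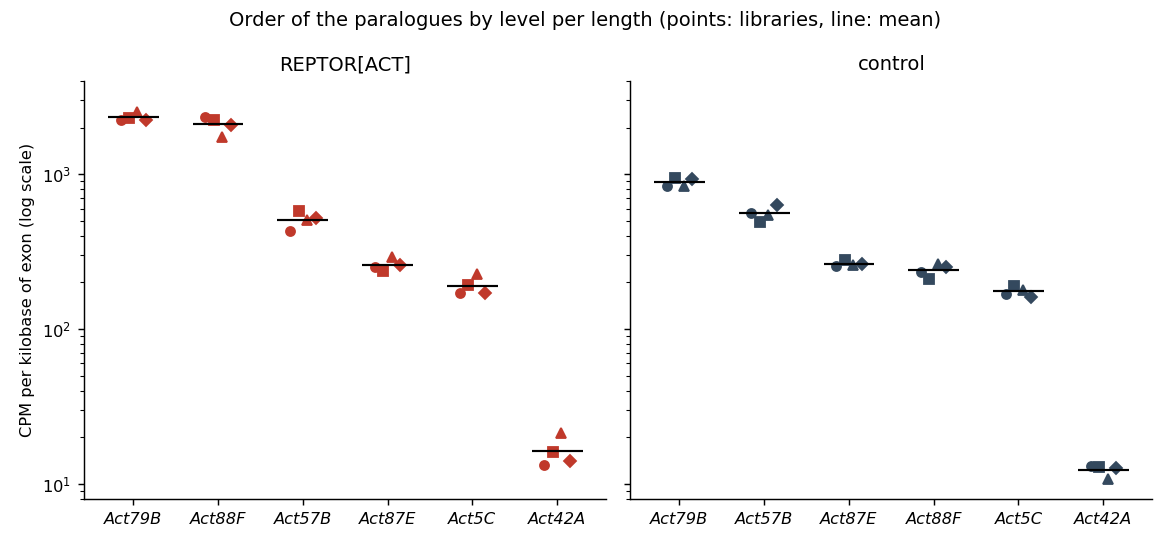
CPM per kilobase of exon on a log axis for the 6 paralogues, ordered by their mean, in REPTOR[ACT] (left) and control (right), with libraries as points and the mean as a line. Act88F is second from the left in REPTOR[ACT], level with Act79B, and 4th in control, level with Act87E. Act42A lies more than 10 times below every other paralogue in both groups.

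The nearest profiles were sought among the 6070 genes that averaged 10 CPM or more, as the smallest mean absolute difference in log2 CPM over the 8 libraries, each gene centred on its control mean. Act88F had no close match: nmdyn-D7, named as a nucleoside diphosphate kinase, was nearest at 0.17, followed by CG33307 (0.22) and RpL24-like (0.26). nmdyn-D7 averaged 19.0 CPM in REPTOR[ACT] and 1.90 CPM in control, and CG33307 168 and 15.7 CPM. nmdyn-D7 thus reached the 10 CPM limit only through its REPTOR[ACT] level, so its place as nearest depends on that limit. For Act79B the nearest were Archease (0.064), Eip55E (0.077) and Map205 (0.080), at mean levels of 28.7, 63.9 and 396 CPM in REPTOR[ACT] and 11.1, 24.9 and 150.1 CPM in control. The paralogues that did not pass the test had closer neighbours than Act79B and Act88F. Acsl was nearest to Act5C (0.051), TBC1D5 to Act57B (0.055) and Naxd to Act87E (0.037). For Act42A, which was called, the nearest was CG32687 (0.087), farther than Archease from Act79B. The next nearest were CalpB and RhoGAP18B for Act5C, GstT4 and pck for Act57B, Nt5b and Eglp4 for Act87E, and CG9396 and CG7149 for Act42A. None of the 18 neighbours was another actin gene.

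Actin chains are folded by prefoldin and the CCT chaperonin, a ring of different subunits, before they can form filaments. All 8 CCT genes rose in REPTOR[ACT], against 24.8% of all genes called higher, with a median log2 fold change of 0.69. CCT1 and CCT4 overlapped between the groups, and 7 of the 8 were called in 5 of 16 alternatives. CCT5 had 168, 128, 164 and 149 CPM in REPTOR[ACT], against 35.7, 31.5, 53.1 and 44.6 CPM in control (log2 fold change 1.89, adjusted p 2.0e-05). CCT2 (1.24), CCT3 (0.93) and CCT6 (0.61) were also higher in every REPTOR[ACT] library than in any control library, as were 23.6% of all genes tested. All 6 prefoldin genes rose as well, against the same 24.8% of all genes, with a median of 0.78. Pfdn4 had 51.5, 50.8, 47.5 and 45.0 CPM in REPTOR[ACT], against 13.9, 13.5, 15.3 and 14.2 CPM in control (log2 fold change 1.78, adjusted p 1.2e-08). Pfdn2 followed at 1.58, Pfdn1 at 0.79 and Pfdn5 at 0.77. These complexes also fold tubulin and other proteins.

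Enzymes that modify actin differed in direction. Naa80, the acetyltransferase of the actin N terminus, had 144, 159, 139 and 147 CPM in REPTOR[ACT], against 31.6, 35.3, 38.6 and 33.5 CPM in control, a log2 fold change of 2.08 (SE 0.076, adjusted p 7.2e-09). SelR, a methionine sulfoxide reductase that reverses actin oxidation, averaged 257 ± 18.7 CPM in REPTOR[ACT] and 104 ± 3.50 CPM in control (SD, n = 4 each), a log2 fold change of 1.31. Mical, the oxidase whose action SelR reverses, fell by 0.17 on the log2 scale (adjusted p 0.0229), to 345 ± 10.01 CPM in REPTOR[ACT], against 387 ± 6.47 CPM in control. The call of Mical was lost in 7 of 16 alternatives.

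Of 12 genes for monomer binding and filament turnover, 8 rose (66.7%) and 1 fell (8.33%), against 24.8% and 19.4% of all genes. The median log2 fold change of the list was 0.36. Profilin (chic), which binds actin monomers and feeds growing ends, averaged 557 ± 34.0 CPM in REPTOR[ACT] and 319 ± 7.94 CPM in control (log2 fold change 0.80, adjusted p 1.3e-06). The cyclase-associated protein capt (0.63) and the capping protein subunit cpa (0.48) rose too, whereas cpb, the other subunit of the capping dimer, was at −0.0082 and not called. The gene that fell was sals, which promotes thin filament lengthening at the pointed end. It had 171, 189, 170.2 and 180 CPM in REPTOR[ACT], against 237, 248, 238 and 243 CPM in control (log2 fold change −0.45, adjusted p 7.0e-05). Formins and Spire, which start new filaments, had 0 of 7 genes higher and 3 lower (42.9%, against 19.4% of all genes), and a median of −0.18. The genes called lower were capu (−0.49), Fhos (−0.35), a formin of flight muscle sarcomeres, and form3 (−0.22). The calls of Fhos and form3 were lost in 7 and 6 of the 16 alternatives.

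Branched filaments are started by the Arp2/3 complex. Of its 12 subunit and activator genes 3 rose, Arpc2 (0.30), Arpc4 (0.20) and Arp3 (0.17), with a median of 0.10 over the list. That is 25.0% of the list, against 24.8% of all genes called higher. The actin-related proteins, relatives of actin that do not form thin filaments, had 1 of 8 tested genes called, again Arp3, and a median of −0.0054. The call of Arp3 was lost in 11 and that of Arpc4 in 5 of 16 alternatives. Of the 9 genes given for actin-related proteins, Arp53D had 2 reads in all and was not tested.

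The proteins that sit on the thin filament include tropomyosin and the troponins. Of 10 genes listed with them, among them flightin of the thick filament, 6 rose (60%, against 24.8% of all genes) and 0 fell. The median log2 fold change of the list was 0.42. Troponin I (wupA) had 2178, 2363, 2046 and 2027 CPM in REPTOR[ACT], against 1213, 1283, 1288 and 1223 CPM in control (log2 fold change 0.78, adjusted p 2.2e-06). Tropomyosin 1 (Tm1) was at 0.66 and troponin T (up) at 0.59, so their changes were smaller than those of Act79B and Act88F. Troponin C, the calcium sensor of the filament, has genes known from different muscle types. TpnC41C, known from tubular muscle, had 590, 567, 663 and 582 CPM in REPTOR[ACT], against 345, 362, 393 and 430 CPM in control (log2 fold change 0.65, adjusted p 5.3e-05). TpnC4, known from flight muscle, had 909, 962, 654 and 831 CPM in REPTOR[ACT], against 694, 728, 865 and 939 CPM in control. It overlapped between the groups (log2 fold change 0.057, adjusted p 0.756), and whether the changes of TpnC41C and TpnC4 differ was not tested. Flightin (fln), a flight muscle protein that binds myosin, likewise overlapped, with 234, 412, 193 and 298 CPM in REPTOR[ACT], against 302, 319, 346 and 394 CPM in control (−0.26, adjusted p 0.393). The flight muscle actin thus rose in libraries in which other flight muscle genes of the list did not pass the test.

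At the Z-disc and in bundles, 3 of 7 tested crosslinkers rose (42.9%) and 1 fell (14.3%), against 24.8% and 19.4% of all genes. α-Actinin (Actn), which anchors thin filaments at the Z-disc, averaged 767 ± 23.0 CPM in REPTOR[ACT] and 510.1 ± 10.9 CPM in control (log2 fold change 0.59, adjusted p 4.4e-06). Fimbrin (Fim, 0.70) and filamin (cher, 0.60) rose similarly. Zasp66, a PDZ protein of the Z-disc, fell by 0.56 on the log2 scale, while its relative Zasp52 was at −0.012 and not called. Lasp was listed at 0 in every library and was not tested.

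Of 10 transcription factor genes tied to actin genes and muscle type, 2 rose (20%, against 24.8% of all genes). Their calls were lost in 3 (Mrtf) and 5 (vg) of 16 alternatives. Mrtf, the actin-binding partner of serum response factor, was at 0.30 (adjusted p 0.0276) and vg, a factor of flight muscle, at 0.36 (adjusted p 0.0257). Mef2, the muscle factor whose regulatory sequence runs the driver, was at −0.0044, the flight muscle factor salm at −0.012 and bs, the fly serum response factor, at 0.26, and these were not called. Over all 10 partner lists, 38 of 81 tested genes (46.9%) were higher and 6 (7.41%) lower in REPTOR[ACT]. Among all genes these shares were 24.8% and 19.4%, and the median log2 fold change of the partner genes was 0.17. All 8 CCT and all 6 prefoldin genes were among those higher. The lists were chosen with earlier results of these data known, so the contrasts of the lists with all genes only describe them.

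**Figure D5:**
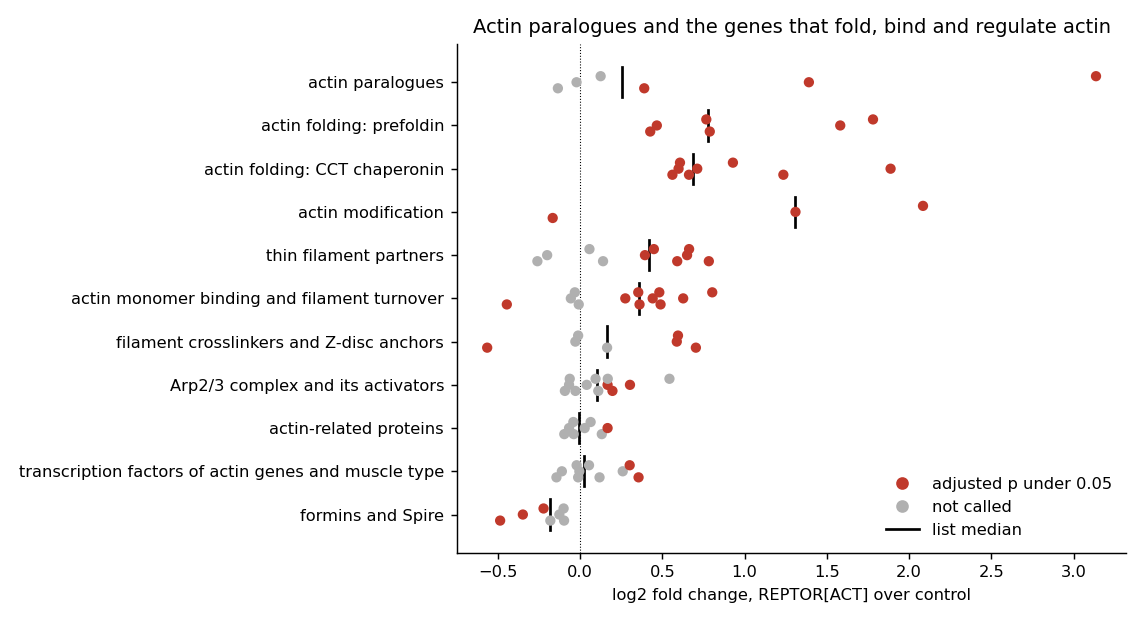
Fitted log2 fold change, REPTOR[ACT] over control, of each tested gene in the actin list and the 10 partner lists, red where the adjusted p was under 0.05 and grey where it was not, with the list median as a black bar. The prefoldin and CCT points all lie to the right of 0, the formins and Spire all to the left, and Act88F is the rightmost point at 3.14.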

How the data were processed

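RNA-seq libraries of adult male thorax were grouped by the labels. Per the study's methods, poly-A RNA was sequenced as single reads in 4 pools and aligned with STAR to a FlyBase genome. The labels name a different kit and sequencer and mm10, a mouse build. No source used here names the counting tool, says whether strand was used, or says what became of reads matching more than 1 gene. The authors' values are expected counts per gene, unscaled, all of them multiples of 0.25 (within 1e-06). Times 4 they were whole in 100% of cases and were used as reads, 26.79 to 50.03 M (M, 1e6) per library. There, 3 reads correspond to 0.0600 to 0.112 CPM, for counting error only.

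Genes passing filterByExpr (at least 10 reads at median depth, 15 in total) numbered 9903 and were tested with edgeR 4.0.16 (TMM, robust quasi-likelihood, no covariate, Benjamini-Hochberg adjustment over all genes) in R 4.3.3, with permutations in Python 3.11.15. Genes were called at an adjusted p under 0.05. Shares and ratios were compared by two-sided exact permutation over 70 arrangements of the libraries. limma 3.58.1 and DESeq2 1.42.0 served as alternatives, besides other scalings, no filter, rounded deposited values, a replicate block, and leaving out each library. Gene models came from BDGP6.54 (17506 identifiers matched).

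The deviations of same-numbered libraries correlated at 0.138, 0.433, 0.220 and 0.137, all above 0.1, so the numbers, taken from the labels, were treated as pairs in the block. For numbers 3 and 4 the pairing was not distinct, since REPTOR[ACT] library 4 correlated with control library 3 at 0.221 and REPTOR[ACT] library 3 with control library 4 at 0.168. Labels do not say what the libraries of a group share, so p-values measure only the spread between these libraries, which may be technical. The paralogues and lists were chosen with earlier results of these data known. Named genes were the 6 paralogues, REPTOR, fln, TpnC4, TpnC41C, up to 4 called genes of smallest adjusted p per list, and 3 nearest profiles per paralogue. cpb, Zasp52, Mef2, salm, bs, Lasp, Arp53D and marker genes were named after their values were seen.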

Additional observations from a re-analysis of the deposited data

Results flagged for a closer look

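Among 26 groups of 4 values (the CPM and the share of each paralogue and the summed share, in each group), 1 had a library far from the rest. Act42A had 17.5 CPM in control library 3, and 20.6 to 21.2 CPM in the other control libraries. The gap was 0.844 of the range, above Dixon's critical value for 4 samples, a limit that chance alone passes in about 1 group of 20.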

How the results depend on the processing

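Act88F and Act79B kept their direction and call in all 16 alternatives, and Act57B and Act5C stayed uncalled. Act42A was called in 4. The log2 fold change of Act42A was 0.41 (adjusted p 0.0517) with total library sizes, 0.37 (0.0530) without mitochondrial genes, 0.39 (0.0670) with no low-count filter, 0.36 (0.0541) with limma-voom, 0.37 (0.0552) with rounded deposited values, and 0.23 to 0.48 with 1 library left out. The replicate block gave 0.37 (adjusted p 0.150) for Act42A. For the shares, an exact sign-flip test within pairs cannot go below p = 0.125. The block changed no other call among the paralogues. Leaving out 1 library put Act87E between −0.083 and 0.033 and TpnC4 between −0.010 and 0.16, uncalled throughout, so their direction was not fixed. The log2 fold change of fln was −0.48 without REPTOR[ACT] library 2 (adjusted p 0.0309), which called it lower. The lower calls among partner genes were 3 to 7 with 1 library left out, against 6 with all libraries. The share of Act79B differed by 1.53 points per kilobase of exon (exact permutation p = 0.486), and that of Act42A by −0.124 points with Act88F left out (p = 0.0571). Relative to nuclear-gene reads, the actin share differed by 0.760 percentage points (2.24-fold), against 0.536 (2.40-fold) for all reads. The cause of these changes was not tested. Depth was not the limit for any paralogue, since each had at least 460 reads per library. Shares over windows unique to 1 paralogue, the overlap of windows between paralogues and protein identities, in both window sizes, were not run because they need transcript sequences.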
